A study of Mus musculus with 8 samples.

Results

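Genes widely known as targets of the coactivators YAP and TAZ were followed in the mouse intestinal epithelium: Ccn1, Ccn2, Ankrd1, Amotl2, Axl, Crim1, F3, Nt5e, Myof and Fjx1. These 10 genes were taken by name from 19938 genes, each named by at least 1 probe set that names no other gene. All 10 were measured, each by 1 probe set. They were read on 8 Affymetrix arrays, each of RNA from an isolate of small intestinal epithelium. The mice were 8-week-old males of the outbred ICR stock, and the isolates were made 4 days after siRNAs or plasmids had been put into the intestine in vivo. The siRNA arm had 3 arrays labelled siGFP, given an siRNA against GFP, and 3 labelled siYAP/TAZ, given siRNAs against YAP and TAZ. The shRNA arm had 1 array labelled shLacZ, given a plasmid for an shRNA against LacZ, and 1 labelled shYAP/TAZ, given plasmids for shRNAs against both genes. The labels assign each siYAP/TAZ array the siGFP array of the same number as its control and the shYAP/TAZ array the shLacZ array, which gives 4 pairs. What the 2 arrays of a pair have in common beyond this is not stated. The labels give neither the share of epithelial cells that took up the nucleic acid nor whether the arrays of a group came from separate mice, so the p-values cover the spread between these arrays only, and that spread may be technical.

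YAP and TAZ are transcriptional coactivators without a DNA-binding domain of their own, and they reach their target genes mainly through the TEAD transcription factors. When the Hippo kinases LATS1 and LATS2 phosphorylate them they are held in the cytoplasm, and when they are free in the nucleus genes such as Ccn1 and Ccn2 are transcribed. In the intestine the pair is known for its part in regeneration after injury, and the level of these target genes is widely used as a readout of YAP/TAZ activity.

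The motif through which TEAD factors bind is shown first, because YAP and TAZ reach DNA through these factors. The letters GGAATG were searched on both strands in windows of 300 bases, 250 before to 50 after the start site, in the RefSeq promoters of GRCm38.p6. Promoters of 8 of the 10 genes were matched, all but those of Ccn2 and Fjx1, which were not searched. Of these 8, 5 held the motif, beside 14.7% of all 32851 promoters. The 6 sites are given below, read so that the motif runs forward, with the motif in capitals and 12 bases on either side.
Ccn1, chr3:145650071-145650100, plus strand: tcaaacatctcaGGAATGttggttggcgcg
Ankrd1, chr19:36120037-36120066, minus strand: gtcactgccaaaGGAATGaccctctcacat
Ankrd1, chr19:36119950-36119979, minus strand: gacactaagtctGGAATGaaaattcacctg
Amotl2, chr9:102717727-102717756, minus strand: gctgctatgccaGGAATGtgagagtttcag
Axl, chr7:25788949-25788978, minus strand: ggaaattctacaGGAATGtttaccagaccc
Crim1, chr17:78200157-78200186, plus strand: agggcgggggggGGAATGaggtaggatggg

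Among the 8 genes searched, which leave out Ccn2, Ankrd1 was the one with a pair of motifs. These begin 210 and 123 bases before the start site. Its upstream sequence is printed whole to show how they lie, with the motifs in capitals, on the minus strand of chr19:36119845-36120094.
Ankrd1 upstream: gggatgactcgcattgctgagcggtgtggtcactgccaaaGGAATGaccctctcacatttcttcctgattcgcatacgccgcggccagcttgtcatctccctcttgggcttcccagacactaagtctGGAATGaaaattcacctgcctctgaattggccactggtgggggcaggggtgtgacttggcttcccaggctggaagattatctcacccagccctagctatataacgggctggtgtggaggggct

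F3, Nt5e and Myof held no GGAATG in these windows. F3 held the AP-1 motif TGANTCA at a pair of places, 146 and 135 bases before its start site, and it was the only one of the 8 promoters with that motif, which 7.81% of all promoters held. The second F3 site, with the motif in capitals, lies on the plus strand at chr3:121723390-121723420.
F3 AP-1 site: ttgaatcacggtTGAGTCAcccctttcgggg
The CArG box of serum response factor was in 0 of the 8 windows and in 1.63% of all promoters. A match describes the letters and is not evidence of binding in these cells.

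Pearson's r between arrays over all genes lay between 0.765 and 0.963. Yap1 and Wwtr1, which encodes TAZ, were not measurably lower under the knockdown labels: the log2 differences, siYAP/TAZ minus siGFP, were -0.12 (SE 0.32) and -0.28 (SE 0.36), with limma's adjusted p at 1.00 for both. Wwtr1, at a mean of 5.90, is not above the background defined below, so its level is a weak check of the label. The groups are therefore called by their labels. All 8 epithelial markers lay above the background defined below, at mean log2 intensities of 11.24 to 12.03 per array.

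Intensities on the log2 scale were compared with those of 1027 olfactory receptor genes, which are not expected in this tissue. The 95th percentile of their mean levels, 6.63, was used as a background, and 46.3% of all genes had a mean over the 8 arrays above it. Of the 10 target genes, 7 had a mean above it: Ccn2, Amotl2, Axl, Crim1, Nt5e, Myof and Fjx1. Just below it were Ccn1 at 6.62 and Ankrd1 at 6.55, and far below it was F3 at 5.02. Levels of different probe sets are not comparable with each other, so the order of genes by intensity is not read further.

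No canonical target gene was lower, or higher, under the YAP/TAZ siRNA label beyond the spread between arrays. Of the 10 genes, 6 had a higher and 4 a lower mean in siYAP/TAZ, with a median log2 difference of 0.03, beside -0.02 over all genes; 46.4% of all genes had a higher and 53.6% a lower mean. The median of the 10 was -0.03 without normalization between arrays and -0.18 over the 7 genes above the background, and it was 0.27 with array weights. In such whole isolates, fewer cells of a type and less RNA per cell cannot be told apart. The fit with limma called 0 of the 10 genes, and 0 of all 19938 (0% called) at an adjusted p under 0.05. At an unadjusted p under 0.05 it had 0 of the 10 and 1.19% of all genes. The siGFP and siYAP/TAZ arrays overlapped for every one of the 10, while they did not overlap for 4.59% of all genes. An exact two-sided permutation test of 3 against 3 cannot go below p = 0.1, and the 10 genes gave 0.5 to 1.

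**Figure D1:**
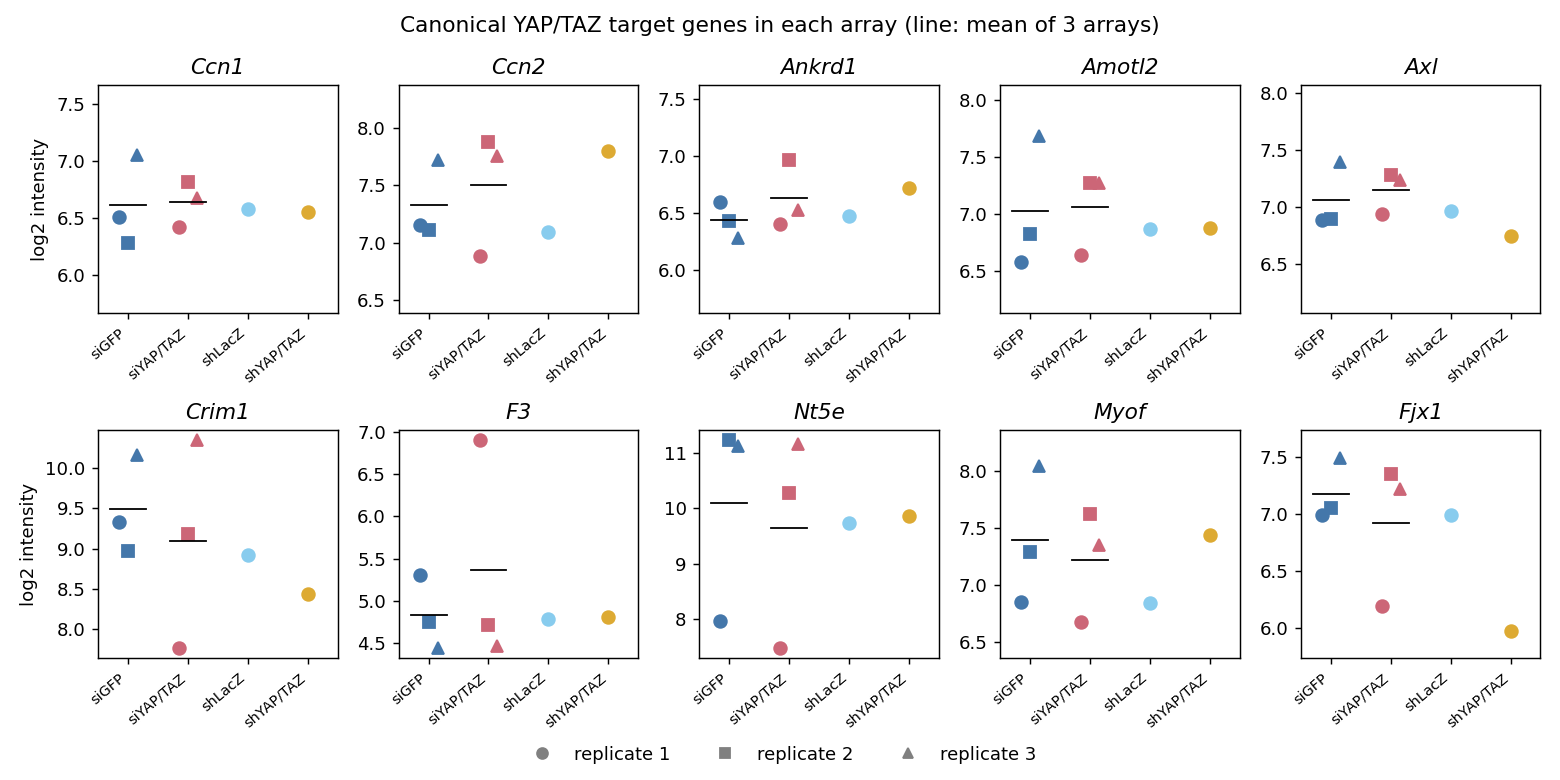
Log2 intensity of each of the 10 target genes (vertical axis, with its own range in each panel) in the siGFP, siYAP/TAZ, shLacZ and shYAP/TAZ arrays (horizontal axis); marker shape gives the replicate number and lines the mean of 3 arrays. The siGFP and siYAP/TAZ points overlap in every panel, and the Nt5e points of both arrays numbered 1, at 7.96 and 7.48, lie far below the other siRNA arrays.

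Secreted matrix proteins are the most used readouts. Ccn1 (probe set 10502655) encodes CYR61, a matricellular protein that binds integrins. Its log2 intensity was 6.51, 6.28 and 7.06 in siGFP 1, 2 and 3 and 6.43, 6.82 and 6.68 in siYAP/TAZ 1, 2 and 3, with 6.58 in shLacZ and 6.56 in shYAP/TAZ. The highest and the lowest of the 8 arrays were both controls, siGFP 3 and siGFP 2. Means were 6.62 ± 0.40 (SD, n = 3) for siGFP and 6.64 ± 0.20 (SD, n = 3) for siYAP/TAZ, which differed by 0.02 (SE 0.31, 95% confidence interval -0.69 to 0.74). The difference was -0.03 without normalization between arrays. Ccn2 (probe set 10362201) encodes connective tissue growth factor. Its log2 intensity was 7.15, 7.11 and 7.72 in siGFP 1, 2 and 3 and 6.88, 7.88 and 7.75 in siYAP/TAZ 1, 2 and 3, with 7.09 in shLacZ and 7.80 in shYAP/TAZ. Among the siRNA arrays, siYAP/TAZ held both the lowest and the highest value. The difference was 0.18 (SE 0.36, 95% confidence interval -0.65 to 1.00).

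Among the intracellular proteins, Ankrd1 and Amotl2 are transcribed with Ccn1 and Ccn2 in many cell types. Ankrd1 (probe set 10467191) encodes an ankyrin repeat protein known from heart muscle. Its log2 intensity was 6.60, 6.43 and 6.28 in siGFP 1, 2 and 3, and 6.40, 6.96 and 6.52 in siYAP/TAZ 1, 2 and 3, with 6.47 in shLacZ and 6.72 in shYAP/TAZ. The siYAP/TAZ 2 array stood highest and the groups overlapped, with a difference of 0.20 (SE 0.29, 95% confidence interval -0.47 to 0.86), which was 0.03 without siYAP/TAZ 2. Amotl2 (probe set 10588226) encodes an angiomotin relative that binds YAP and holds it back. Its log2 intensity was 6.58, 6.83 and 7.68 in siGFP 1, 2 and 3 and 6.64, 7.27 and 7.27 in siYAP/TAZ 1, 2 and 3, with 6.87 in both shRNA arrays. Both arrays numbered 1 were low, and the mean difference was 0.03 (SE 0.37, 95% confidence interval -0.82 to 0.88), or -0.03 without normalization between arrays. Myof (probe set 10467258) encodes myoferlin, a ferlin of the plasma membrane. It read 6.85, 7.30 and 8.04 in siGFP 1, 2 and 3, 6.68, 7.62 and 7.35 in siYAP/TAZ 1, 2 and 3, 6.84 in shLacZ and 7.44 in shYAP/TAZ on the log2 scale. Again the arrays numbered 1 were the lowest of the siRNA arm, and the difference was -0.18 (SE 0.40, 95% confidence interval -1.09 to 0.73).

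Receptors and membrane proteins followed. Axl (probe set 10561104) encodes the receptor tyrosine kinase for GAS6. Its log2 intensity ran from 6.75 in shYAP/TAZ to 7.39 in siGFP 3, a range of 0.65 over 8 arrays, which is narrower than that of most genes (percentile 9.2 of all genes by range). The siRNA difference was 0.09 (SE 0.30, 95% confidence interval -0.58 to 0.77). Crim1 (probe set 10446986) encodes a transmembrane protein that binds bone morphogenetic proteins. It read 9.33, 8.97 and 10.16 in siGFP 1, 2 and 3, 7.77, 9.19 and 10.34 in siYAP/TAZ 1, 2 and 3, 8.92 in shLacZ and 8.44 in shYAP/TAZ. One array, siYAP/TAZ 1, lay below all others, and the other siYAP/TAZ arrays lay inside or above the siGFP range. The means were 9.49 ± 0.61 (SD, n = 3) and 9.10 ± 1.29 (SD, n = 3), a difference of -0.39 (SE 0.62, 95% confidence interval -1.79 to 1.01), which turned to 0.28 without siYAP/TAZ 1.

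F3, Nt5e and Fjx1 are a blood clotting receptor, an enzyme of the cell surface and a protein of the Golgi and extracellular space. F3 (probe set 10495675) encodes tissue factor, which starts coagulation. Its log2 intensity was 6.90 in siYAP/TAZ 1 and between 4.45 and 5.30 in the other 7 arrays, so the gene lay above the background level of 6.63 in that array only. The mean difference of 0.53 (SE 0.61, 95% confidence interval -0.85 to 1.91) was -0.24 without siYAP/TAZ 1. Nt5e (probe set 10587639) encodes CD73, which makes adenosine from AMP outside the cell. It read 7.96, 11.22 and 11.12 in siGFP 1, 2 and 3, 7.48, 10.27 and 11.17 in siYAP/TAZ 1, 2 and 3, 9.74 in shLacZ and 9.86 in shYAP/TAZ. Both arrays numbered 1 of the siRNA arm were the lowest of the 8, whatever their label. The range of 3.75 put Nt5e at percentile 99.2 of all genes, and the siRNA difference of -0.46 (SE 1.08, 95% confidence interval -2.91 to 1.99) was small beside it. Fjx1 (probe set 10485402) encodes the mouse relative of the fly four-jointed kinase. It read 6.99, 7.05 and 7.49 in siGFP 1, 2 and 3, 6.19, 7.35 and 7.22 in siYAP/TAZ 1, 2 and 3, 6.98 in shLacZ and 5.97 in shYAP/TAZ. The arrays siYAP/TAZ 1 and shYAP/TAZ were the lowest, and siYAP/TAZ 2 and 3 lay within the siGFP range. The siRNA difference was -0.26 (SE 0.38, 95% confidence interval -1.11 to 0.60) and turned to 0.11 without siYAP/TAZ 1.

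**Figure D2:**
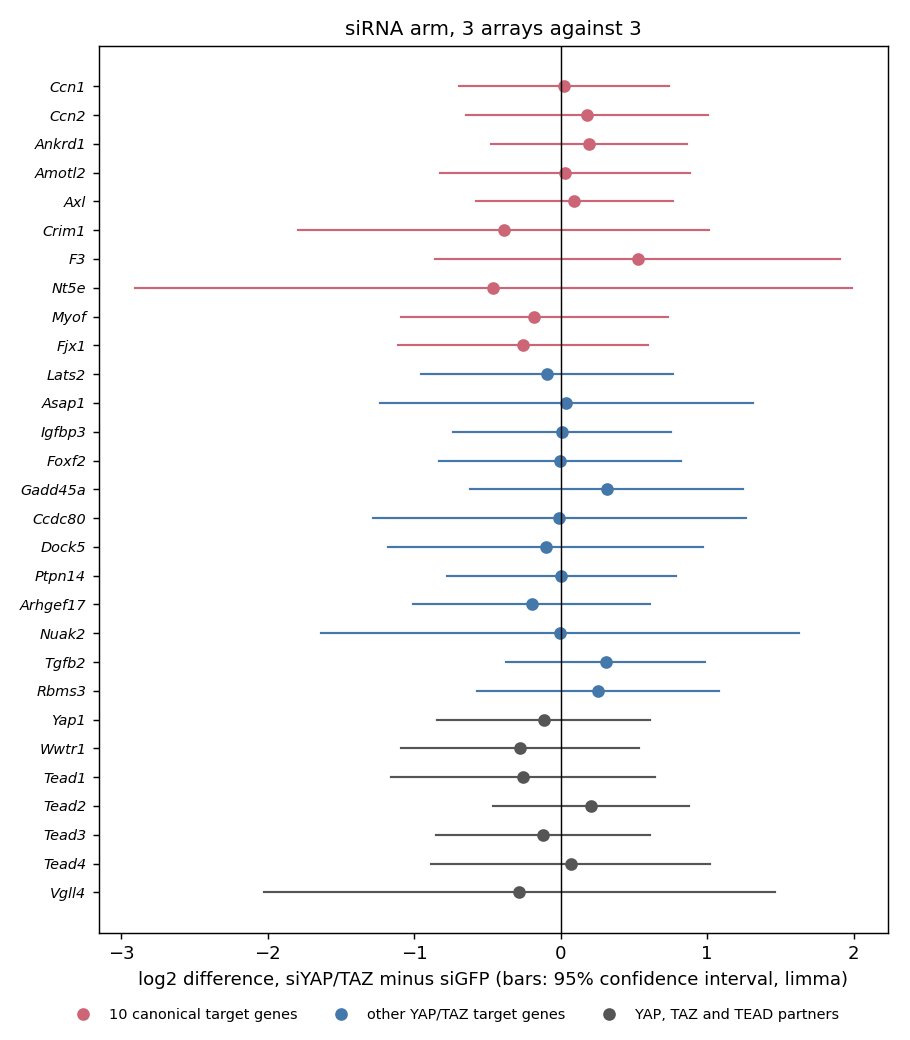
Log2 difference, siYAP/TAZ minus siGFP (horizontal axis), with its 95% confidence interval from limma, for the 10 canonical target genes, 12 other target genes and 7 genes of YAP, TAZ, TEAD and VGLL4 (vertical axis). Every interval crosses 0, and that of Nt5e, -2.91 to 1.99, is the widest.

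The intervals set what the siRNA arm could have missed. For Axl, Ccn2 and Amotl2, which lie above the background, the lower bounds of -0.58, -0.65 and -0.82 are above -1, a halving of intensity on this scale. The siGFP means of Axl, Ccn2 and Amotl2 lay less than 1 above the background of 6.63, however. A fall to the background would be smaller than a halving of intensity, so these bounds do not exclude a halving of the transcript. The lower bounds of Crim1, Nt5e, Myof and Fjx1 reached below -1, so a halving of these genes lay within their intervals. Ccn1, Ankrd1 and F3 are not above the background in the mean, so their lower bounds of -0.69, -0.47 and -0.85 set no limit on a fall of the transcript. If a constant was added to the deposited values, as their lowest value of 16.0005 leaves possible, log2 differences of dim genes such as F3, Ankrd1 and Ccn1 are smaller than without it.

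Each array set against its own control gave 4 values per gene. None of the 10 genes differed in the same direction in all 4 pairs, as 15% of all genes did, 8.95% lower and 6.02% higher. In siRNA pair 1, 7 of 10 were lower, with a median of -0.18, beside 53% of all genes lower. In siRNA pair 2, 8 of 10 were higher, with a median of 0.36, beside 51.1% of all genes higher. Pair 3 had 5 of 10 lower and a median of -0.07, beside 54.5% lower of all genes. In the shRNA pair, 6 of 10 were higher, with a median of 0.02, beside 47.8% of all genes higher.

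Ccn1 differed by -0.09, 0.53 and -0.38 in siRNA pairs 1, 2 and 3 and by -0.02 in the shRNA pair. Ccn2 differed by -0.27, 0.77, 0.04 and 0.71 in the same order, higher in 3 of 4. Both CCN genes therefore stood highest in pair 2. In the same order, the array with the knockdown label minus its control gave 0.25, -0.87, 0.27 and -0.09 for Yap1. For Wwtr1, which is not above the background, it gave -0.55, 0.58, -0.86 and 0.06. Each of these genes was lower in 2 pairs and higher in 2, and each value sets 1 array against 1. Whether the target genes follow these values was not tested. Ankrd1 differed by -0.19, 0.54, 0.24 and 0.25, and Amotl2 by 0.06, 0.45, -0.41 and 0.00. Axl differed by 0.06, 0.38, -0.16 and -0.22. For Nt5e the differences were -0.48, -0.95, 0.05 and 0.13, so it was the one gene besides F3 that was lower in pair 2. Crim1 was lower by -1.56 in pair 1, at 0.21 and 0.18 in pairs 2 and 3, and at -0.48 in the shRNA pair; 2.34% of all genes were lower by at least 1 in pair 1. F3 was higher by 1.59 in pair 1, where 2.02% of all genes were higher by at least 1, and differed by -0.04, 0.03 and 0.03 elsewhere.

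**Figure D3:**
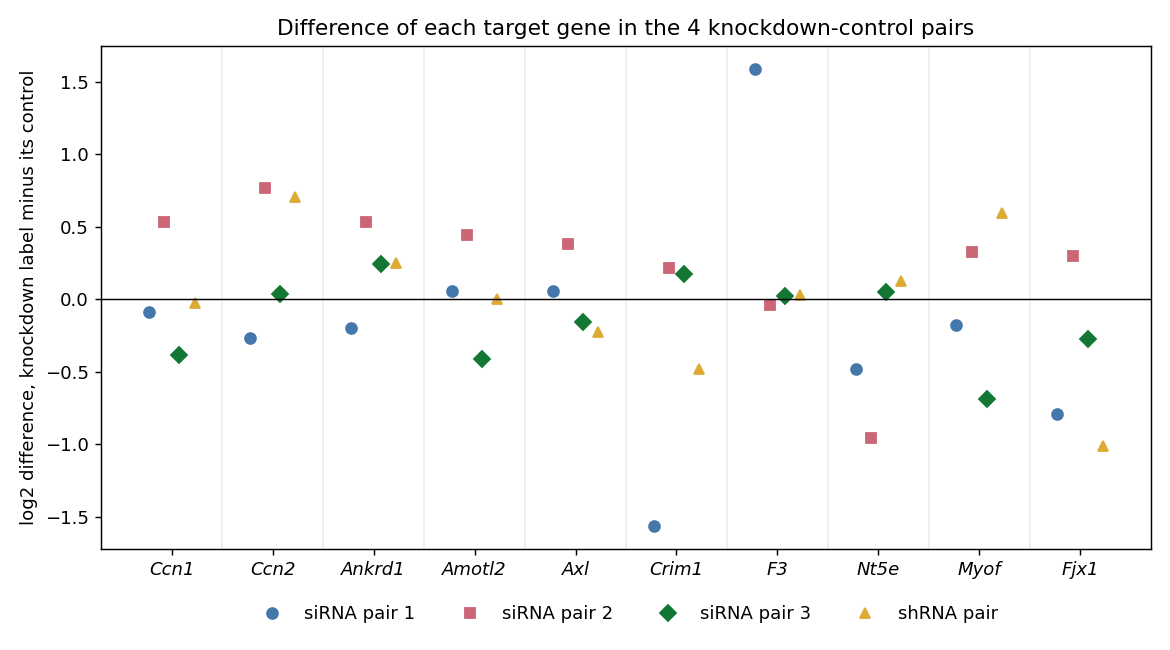
Log2 difference between the array with a knockdown label and its control (vertical axis) for each of the 10 target genes (horizontal axis) in the 3 siRNA pairs and the shRNA pair. The points of every gene fall on both sides of 0, with the widest spread for F3 and Crim1, at 1.59 and -1.56 in siRNA pair 1.

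Over the 4 pairs together, fitted with the pair as a block in limma, Fjx1 and Crim1 had the lowest mean differences and F3 and Ccn2 the highest, and none passed. Without siRNA pair 1, Crim1 stood at -0.03 and F3 at 0.0053, and Ccn2 at 0.50; without siRNA pair 2, Ccn2 stood at 0.16. Fjx1 stood at -0.44 (SE 0.24; adjusted p = 0.770), lower in 3 of 4 pairs, with -0.79, 0.30 and -0.27 in the siRNA pairs and -1.01 in the shRNA pair. Crim1 stood at -0.41 (SE 0.29; adjusted p = 0.848) and Nt5e at -0.31 (SE 0.23; adjusted p = 0.856). On the other side were F3 at 0.40 (SE 0.29), Ccn2 at 0.31 (SE 0.23) and Ankrd1 at 0.21 (SE 0.20). Ccn1, Amotl2, Axl and Myof stood at 0.01, 0.02, 0.02 and 0.01, and each of them turned below 0 without normalization between arrays. The exact two-sided sign-flip permutation p of the 10 genes ran from 0.25 to 1, and 4 pairs cannot reach 0.05. In this fit 4 genes of 19938 passed, or 0.0201%: B3galt5, B3gnt7, Olfr165 and Rdh7. They are named after their values were seen, and none is a target gene considered here. Olfr165 belongs to the olfactory receptor genes that defined the background, and its own mean lay above that background, so not every gene of that set was silent. Unadjusted p-values under 0.05 came to 0 of the 10 genes and 7.49% of all genes.

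The shRNA pair has 1 array a group and no test. Fjx1 at -1.01, Ccn2 at 0.71 and Myof at 0.60 differed by at least 0.5, which is 3 of 10 genes beside 19.1% of all genes. Those higher by at least 0.5 were 2 of 10, beside 7.79% of all genes, and the 1 lower by that much stood beside 11.4%. Across all genes in that pair the 5th and 95th percentiles of the difference were -0.77 and 0.62, so Fjx1 and Ccn2 lay outside them, on opposite sides. Ccn1, Amotl2 and F3 differed by -0.02, 0.00 and 0.03.

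A wider list of YAP/TAZ target genes added 12 genes to these 10. Of the 12, 6 were above the background, 6 had a higher and 6 a lower mean in siYAP/TAZ, the median difference was 0.00, and 0 passed the test. Gadd45a, a stress response gene, stood at 0.31 (SE 0.41) and Tgfb2, a ligand of the TGF-beta family, at 0.31 (SE 0.30). Lats2, the Hippo kinase that YAP and TAZ are known to induce as feedback, stood at -0.10 (SE 0.38), and Nuak2, a kinase of the AMPK family, at -0.00 (SE 0.72). Tgfb2 was the only one of the 22 genes that was higher in all 4 pairs, at 0.24, 0.63, 0.06 and 0.24. Of all genes, 6.02% were higher in all 4 pairs, so 1 of 22 does not stand out. Its mean over the pairs was 0.29 (SE 0.19; limma adjusted p = 0.825), and its level lay below the background.

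Of YAP, TAZ, the TEAD factors and VGLL4, a competitor of YAP for TEAD, 5 of 7 were lower and 2 higher in the mean, with a median difference of -0.12, and 0 passed. Tead1 stood at -0.26 (SE 0.40), Tead2 at 0.21 (SE 0.29), Tead3 at -0.12 (SE 0.32) and Tead4 at 0.07 (SE 0.42). Vgll4 read 8.22 in siYAP/TAZ 1 and 7.91 in siGFP 1 but 5.58 in siGFP 3 and 5.56 in siYAP/TAZ 3, so its widest differences lay between replicate numbers. A second probe set of Tead1 gave -0.37.

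Levels of the target genes in each array are given beside those of all genes. The mean log2 level of the 10 genes was 7.02, 7.28 and 7.74 in siGFP 1, 2 and 3, 6.83, 7.54 and 7.60 in siYAP/TAZ 1, 2 and 3, and 7.13 and 7.12 in shLacZ and shYAP/TAZ. The 12 further targets read 6.81, 7.28 and 7.70 and 6.78, 7.56 and 7.58 in the siRNA arrays, and 6.93 and 6.98 in the shRNA arrays, so both lists were lowest in siYAP/TAZ 1 and highest in siGFP 3. The siGFP 3 array held the highest value for 5 of the 10 genes, beside 21.8% of all genes, and siYAP/TAZ 1 the lowest for 4 of 10, beside 19.6%. The median range over the 8 arrays was 1.23 for the 10 genes and 1.13 for all genes. Nt5e, Crim1 and F3 stood at percentiles 99.2, 95.1 and 93.9 of all genes by range, and Axl, Ankrd1 and Ccn1 were at percentiles 9.2, 11.7 and 18.7.

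The extremes of Ccn1 fell in the same arrays as those of genes that the tissue is not expected to transcribe. The mean log2 level of the olfactory receptor genes ran from 5.26 in siGFP 2 to 5.47 in siGFP 3, and the 95th percentile of their levels from 6.44 to 6.96 in the same arrays. Ccn1 had its lowest and highest values in these arrays too, 6.28 and 7.06. Within each array it lay at most 0.201 from that 95th percentile. Among all genes, 13.4% had their lowest value in siGFP 2 and 21.8% their highest in siGFP 3. Why the extremes fell in these arrays was not tested. The genes with the pattern most like Ccn1 over the 8 arrays, by Pearson's r among 8921 genes above the background, were Cpsf4l at 0.984, Rims1 at 0.976, Tnp2 at 0.975 and BC051019 at 0.974. Rims1 is known from the synapse and Tnp2 from sperm. For Ccn2 they were Ubtfl1 at 0.988, Plekhg2 at 0.980, Krt222 at 0.978 and Olfr366, an olfactory receptor, at 0.976. With 8 arrays and this many genes such values of r are a ranking and no test. Centring each array on its olfactory receptor genes, chosen after seeing the data, left the siRNA differences of Ccn1 at 0.00 and of Ccn2 at 0.16.

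**Figure D4:**
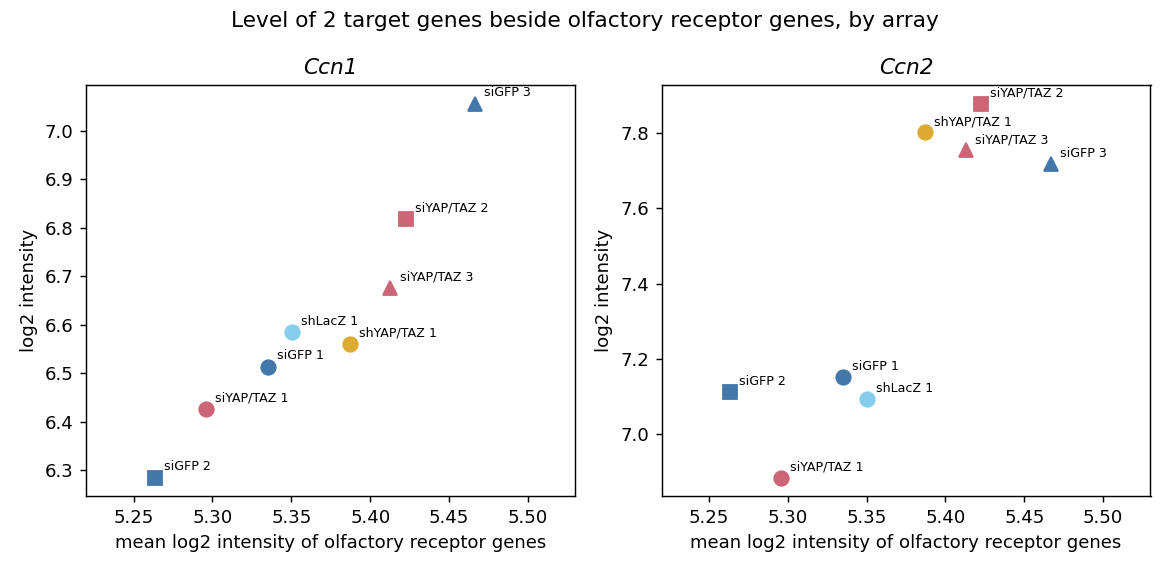
Log2 intensity of Ccn1 (left) and Ccn2 (right) on the vertical axes against the mean log2 intensity of 1027 olfactory receptor genes in the same array (horizontal axis); each point is 1 of the 8 arrays, coloured by group. Ccn1 rises from 6.28 in siGFP 2 to 7.06 in siGFP 3 as the olfactory receptor mean rises from 5.26 to 5.47, and Ccn2 splits into 4 arrays from 6.88 to 7.15 and 4 from 7.72 to 7.88.

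Nt5e had other neighbours: Fam160b1 at an r of 0.989, Ttc39c at 0.986, Ccdc92b at 0.983 and Apoa1, an apolipoprotein that enterocytes secrete, at 0.982, over 8 arrays and 8920 genes. Nt5e was chosen for this ranking because it had the widest range of the 10.

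Several of these genes are also transcribed in connective tissue, vessels and blood cells, so markers of other cells in the isolate are given beside them. Fibroblast markers, 5 of 8 above the background, had mean log2 levels of 6.72 to 7.34 in siGFP and 6.37 to 7.29 in siYAP/TAZ, with 6.81 in shLacZ and 7.08 in shYAP/TAZ. Their summed intensities were 1034 to 1861, 819 to 2169, 1122 and 1898. By mean log2 level they were lowest in siYAP/TAZ 1 and highest in siGFP 3, as the target genes were, while their summed intensity was highest in siYAP/TAZ 2. This order was not particular to them. Epithelial markers were also highest in siGFP 3, at 12.03, and within the siRNA arm lowest in siYAP/TAZ 1, at 11.26. Smooth muscle and endothelial markers were lowest in siYAP/TAZ 1 too, at 6.16 and 5.56, but highest in siYAP/TAZ 2. For fibroblast markers the pair values follow. Their median differences were -0.27, 0.25 and -0.27 in siRNA pairs 1, 2 and 3 and 0.00 in the shRNA pair. Smooth muscle markers, 3 of 8 above the background, had summed intensities of 699 to 898 in siGFP and 667 to 1074 in siYAP/TAZ, and a median siRNA difference of 0.15. Endothelial markers, 0 of 8 above the background, had summed intensities of 460 to 522 and 418 to 629, and a median difference of -0.01. The part of these cells in the levels of the target genes was not tested.

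Lymphocyte, crypt and other markers are given for the same arrays. B cell markers, 7 measured and 0 above the background in the mean, had a median siRNA difference of 1.66, with pair medians of 0.09, 3.70, 1.60 and -1.15. They stood highest in siYAP/TAZ 2. That array was the highest for 2 of the 10 target genes, Ccn2 and Ankrd1, beside 16.6% of all genes. Crypt base stem cell markers were lower in the mean for 8 of 8, with a median of -0.92 and pair medians of -1.04, -1.86, -0.40 and -0.81, and 0 of them passed the test. Epithelial markers had a median of -0.24, with pair medians of -0.31, 0.03, -0.31 and -0.09. T cell markers, 2 of 7 above the background, had a median of 0.10 and pair medians of -0.31, -0.39, 0.85 and 0.03. Myeloid markers, 1 of 8 above the background, had a median of -0.11 and pair medians of 0.14, 0.02, -0.20 and 0.64; in the shRNA pair, where Ccn2 and Myof stood at 0.71 and 0.60, 8 of 8 myeloid markers were higher, and their part in those differences was not tested. Immediate early genes, of which Ccn1 is known to be one in cells given serum, had a median of 0.21 in the siRNA arm, with pair medians of 0.44, -0.05, -0.26 and -0.26, and 6 of 8 were above the background. In pair 2 the 10 target genes, B cell markers and fibroblast markers had higher medians. Smooth muscle and endothelial markers did too, at 0.51 and 0.33, while crypt and T cell markers had lower ones, at -1.86 and -0.39. What this pair of arrays shares was not tested.

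**Figure D5:**
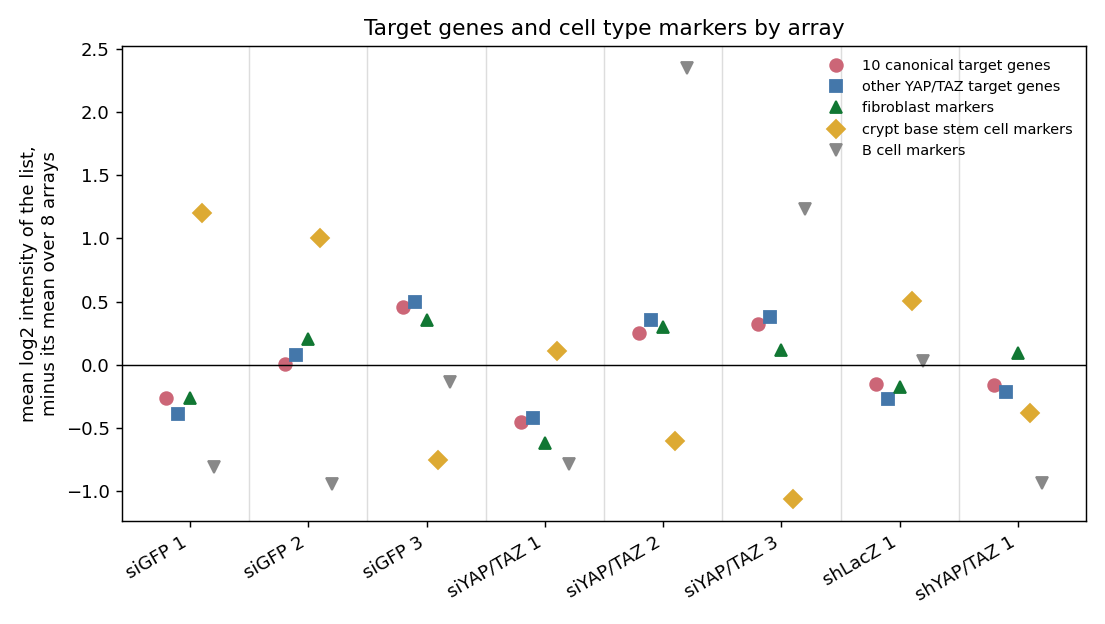
Mean log2 intensity of the 10 target genes, 12 other target genes, and fibroblast, crypt base stem cell and B cell markers in each of the 8 arrays (horizontal axis), minus the list's mean over the 8 arrays (vertical axis). Both target lists lie above 0 in siGFP 3, siYAP/TAZ 2 and siYAP/TAZ 3 and below 0 in both arrays numbered 1 and in the shRNA arrays, and B cell markers stand highest in siYAP/TAZ 2.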

How the data were processed

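The deposited table holds linear intensity values of 28853 probe sets on each array. Per the labels, an Affymetrix WT labelling kit was used; the authors' steps of background correction, probe summary and array scaling remain not given in the sources used here. Values were put on the log2 scale and quantile normalized over the 8 arrays. Probe sets naming 1 gene in the platform annotation (21789) were kept, symbols were updated through Entrez identifiers in a RefSeq table of GRCm38, and the brightest probe set stood for each of 19938 genes; 1621 probe sets naming several genes and 5443 naming none were not used. Differences were tested with limma 3.58.1 in R 4.3.3, Benjamini-Hochberg adjusted over all genes, at a threshold of 0.05: siYAP/TAZ against siGFP without a block, and all 8 arrays with the pair as a block. The fit was tested on simulated data. Array number limits the precision. Alternatives were other normalizations, probe set rules, priors, array weights, a filter on dim genes and leaving out arrays. Named genes are the 10 targets, 12 further targets, the TEAD group and, for 3 of the 10, the 4 genes nearest in pattern, passing over unnamed predicted genes. Members and lists were chosen with earlier results of these data known.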

Additional observations from a re-analysis of the deposited data

How the results depend on the processing

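The 10 target genes stayed without a call under every alternative run: 0 of 157 values over 16 settings in the siRNA arm passed at an adjusted p under 0.05 (limma, lowest 0.256), and 0 of 127 over 13 settings for the 4 pairs (lowest 0.202). The sign turned in 26 and 16 of these values. Without normalization between arrays, the siRNA differences of Ccn1 and Amotl2 were -0.031 and -0.034, and the 4-pair differences were -0.0070 for Ccn1, -0.0065 for Amotl2, -0.0069 for Axl and -0.042 for Myof. With arrays centred on olfactory receptor genes, chosen after seeing the data, the 4-pair differences were -0.015, -0.0011, -0.011 and -0.011 for the same genes. With array weights the siRNA differences were 0.78 for Crim1, -0.20 for F3, 0.36 for Nt5e, 0.092 for Myof and 0.10 for Fjx1, and the 4-pair differences -0.059 for Ccn1, -0.019 for Amotl2 and -0.074 for Axl. The cause was not tested.

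Leaving out 1 siRNA array, or siGFP 1 and siYAP/TAZ 1 together (also chosen after seeing the data), gave siRNA differences of -0.14 to 0.24 for Ccn1, -0.0083 to 0.49 for Ccn2, 0.03 to 0.39 for Ankrd1, 0.0071 to 0.26 for Axl, -0.19 to 0.36 for Amotl2, -1.01 to 0.28 for Crim1, -0.24 to 0.97 for F3, -1.53 to 0.62 for Nt5e, -0.45 to 0.14 for Myof and -0.47 to 0.11 for Fjx1. Leaving out 1 pair gave -0.16 to 0.14 for Ccn1, -0.12 to 0.17 for Amotl2, -0.11 to 0.094 for Axl, -0.18 to 0.25 for Myof, 0.16 to 0.50 for Ccn2, 0.10 to 0.34 for Ankrd1, -0.62 to -0.03 for Crim1, 0.0053 to 0.55 for F3, -0.46 to -0.10 for Nt5e and -0.69 to -0.26 for Fjx1. The median of the 10 genes in the siRNA arm ran from -0.11 to 0.22 in this way, and from -0.10 to 0.16 over the pairs; with array weights it was 0.27 in the siRNA arm.

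Counts over all genes moved more. The siRNA arm had 0 calls in each fit without a block on all 6 arrays, 13 without siYAP/TAZ 1 and 61 without both arrays numbered 1, so a range of 0 to 61. The 4-pair count of 4 was 15 with the 75th percentile, 19 without normalization, 2 with 16 subtracted and 1 added, 1 with olfactory receptor centring, 12 with a trended robust prior, 96 with array weights, 13 with the filter on dim genes, and 1 to 26 without 1 pair.

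With the replicate number as a block, the siRNA arm had 1 call, B3gnt7, and no target gene. Without the pair block, the 8 arrays had 0 calls. Deviations from the group means correlated at 0.755, -0.130 and 0.571 between arrays numbered 1, 2 and 3. The siYAP/TAZ 2 array deviated most like siGFP 3, at 0.583. With 3 arrays a group, the deviations within a group are tied to each other. These values therefore cannot decide what arrays of the same number share.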
